A study of Homo sapiens with 12 samples.

Results

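The AP-1 genes described here were 9 rows of the deposited table of normalized reads, chosen by their gene symbols among 28035 listed genes. They were the FOS genes FOS (ENSG00000170345), FOSB (ENSG00000125740), FOSL1 (ENSG00000175592) and FOSL2 (ENSG00000075426), the JUN genes JUN (ENSG00000177606), JUNB (ENSG00000171223) and JUND (ENSG00000130522), and the BATF genes BATF2 (ENSG00000168062) and BATF3 (ENSG00000123685). All 9 averaged 10 or more normalized reads across the 12 libraries and were tested, but BATF2 reached that mean only through the libraries that received interferon. Messenger RNA was sequenced from OVCAR-3, an established human ovarian adenocarcinoma cell line of epithelial type and wt genotype, after 6 h of treatment. Each of the 4 groups held 3 libraries. The Combination group received FC-A, the fungal product Fusicoccin A that holds 14-3-3 adapter proteins on their partners, together with interferon alpha (IFNa, an antiviral cytokine). The IFNa group received interferon alpha, the FC-A group received Fusicoccin A, and the DMSO group received the solvent. No dose is given by the labels, and the study is of 1 cell line at 1 time. No label says that replicates came from separate cultures. The p-values set the differences between groups only against the spread among these libraries within a group, and that spread may be technical.

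AP-1 is a family of transcription factors that bind DNA as pairs held together by a leucine zipper. JUN proteins pair with each other or with FOS, BATF or ATF proteins, whereas FOS proteins need a JUN partner. The genes are classic early targets of growth factor, stress and cytokine signals, and the kinases of the MAPK cascades act both on their promoters and on the proteins. BATF proteins lack the activation domain of FOS, and their pairs with JUN can bind composite sites together with interferon regulatory factors. In epithelial cancers AP-1 is best known for driving matrix protease, cytokine and growth factor genes.

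Libraries held 31.2 to 39.5 M reads assigned to genes. The interferon-stimulated genes IFIT1, MX1, OAS1 and ISG15 together stood at 368454.5 to 385732.2 normalized reads in the Combination libraries and 338625.7 to 354595.4 in the IFNa libraries, against 1823.8 to 2385.8 in FC-A and 2132.5 to 2531.5 in DMSO libraries, which matches the labels. The 9 epithelial markers summed to 459067.4 to 496582.2 normalized reads in Combination libraries, 425778.5 to 474081.0 in IFNa libraries, 406479.6 to 476703.1 in FC-A libraries and 438706.0 to 452391.7 in DMSO libraries. The 5 of 8 leukocyte markers that were listed summed to at most 315.0 normalized reads in any library, and their ranges overlapped between all groups. None of the listed markers of these types was at 0 in every library. The 6 fibroblast markers, COL1A1 among them, summed to 1588.8 to 2193.2 in the Combination and 1421.7 to 1931.2 with IFNa. Their sums were 1010.4 to 1086.2 with FC-A and 856.3 to 926.0 in DMSO. Of these markers only COL1A1 and COL1A2 averaged enough normalized reads to be tested. COL3A1, DCN, LUM and PDGFRA did not, so the sums were mostly those of COL1A1 and COL1A2. The 2 listed of 3 endothelial markers summed to 115.0 to 165.8 in the Combination, 136.4 to 188.5 with IFNa and 204.9 to 294.3 with FC-A, against 242.2 to 324.2 in DMSO. Those sums moved with the same treatment as the AP-1 genes, and their part in the results was not tested. In bulk RNA, fewer cells of a type and less RNA per cell cannot be told apart.

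The first comparison asked how 6 h of interferon alpha alone changed the AP-1 genes. IFNa raised 8 of the 9, and FOSB was the exception. The 8 include BATF2, which reached the mean needed for testing only through the libraries that received interferon. BATF2 rose about 168.1-fold, FOSL1 11.03-fold and BATF3, FOS and JUNB 2.26- to 2.57-fold, while FOSL2, JUN and JUND rose by less than 1.5-fold. Of all 15990 genes tested, 25.4% were called higher in the same comparison and 46.9% were called in either direction. In the same 8 genes every IFNa library was above every DMSO library, as in 30.4% of all genes. The median log2 fold change was 1.18 over the 9 genes and -0.01 over all genes. Of the genes called, 54.2% were higher, or 36.6% after quantile normalization.

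FOS, the founding member whose transcript is usually brief, had 786.34, 627.25 and 1078.03 normalized reads in the IFNa libraries against 327.42, 306.15 and 374.72 in the DMSO libraries. The lowest IFNa library lay well above the highest DMSO library. FOS rose by 1.27 on the log2 scale (SE 0.187, limma adjusted p = 6.88e-05). FOSL1, which encodes the FOS relative FRA1 linked to invasive carcinoma cells, had 1832.75, 1881.75 and 1703.24 normalized reads with IFNa against 185.03, 168.38 and 138.25 in DMSO. The groups stood far apart and each was tight. FOSL1 rose by 3.46 on the log2 scale (SE 0.158, limma adjusted p = 2.64e-10). FOSL2, which encodes FRA2, had 9440.12, 9620.03 and 8677.70 normalized reads with IFNa against 6718.07, 6549.77 and 6443.59 in DMSO. It was high before treatment, and its rise was small beside the spread of levels among the AP-1 genes but clear of the replicates (log2 fold change 0.49, SE 0.0599, limma adjusted p = 1.21e-05). FOSB, an early gene with a truncated splice form that lacks the activation domain, had 50.99, 47.59 and 68.74 normalized reads with IFNa against 41.72, 40.18 and 65.79 in DMSO. Replicate 3 was the highest in both groups and the groups overlapped. Its log2 fold change was 0.19 with a 95% interval of -0.24 to 0.63 (limma adjusted p = 0.456).

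JUN, the partner that most AP-1 pairs share, had 8145.88, 8032.40 and 8543.49 normalized reads in the IFNa libraries against 5665.96, 5555.73 and 5832.41 in the DMSO libraries. The groups did not overlap, and JUN rose by 0.54 on the log2 scale (SE 0.0829, limma adjusted p = 0.000111). JUNB, a weaker activator than JUN that can restrain it, had 5079.06, 5539.58 and 4728.93 normalized reads with IFNa against 2319.17, 2345.90 and 2114.81 in DMSO. Every IFNa library held more than any DMSO library, and the log2 fold change was 1.18 (SE 0.0908, limma adjusted p = 1.01e-07). JUNB overlaps HOOK2 on the opposite strand, as FOSB overlaps ERCC1, and the use of strand in the counting is not given. HOOK2 stood at -0.12 on the log2 scale with IFNa (limma adjusted p = 0.242) and ERCC1 also at -0.12 (limma adjusted p = 0.156). JUND, the JUN gene that is usually expressed in resting cells, had 2167.27, 2227.26 and 2303.36 normalized reads with IFNa against 1901.96, 2048.36 and 1783.00 in DMSO. The gap between the groups was narrow. JUND rose by 0.23 on the log2 scale (SE 0.0806, limma adjusted p = 0.0328). Its call was lost without IFNa replicate 1, 2 or 3 (limma adjusted p = 0.0516, 0.0661 and 0.0846), without DMSO replicate 1 or 3 (0.0777 and 0.136), without replicate 3 of every group (log2 fold change 0.15, 0.0858) and under quantile normalization, where the log2 fold change was 0.09 (0.41).

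BATF2, a BATF protein known as a partner of IRF1 in macrophages, had 893.43, 841.41 and 1047.48 normalized reads in the IFNa libraries against 1.81, 6.70 and 6.67 in the DMSO libraries. The DMSO values rest on 2, 7 and 7 reads, so the gene was barely detected without interferon. The log2 fold change of BATF2 was 7.39 (SE 0.365, limma adjusted p = 6.67e-10), and in the authors' deposited table it was 7.53. BATF3, best known for the dendritic cells it specifies, had 71.39, 84.71 and 103.66 normalized reads with IFNa against 27.21, 36.36 and 35.28 in DMSO. It stayed among the lowest of the 9 genes, but the groups did not overlap. BATF3 rose by 1.36 on the log2 scale (SE 0.218, limma adjusted p = 0.000148).

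**Figure D1:**
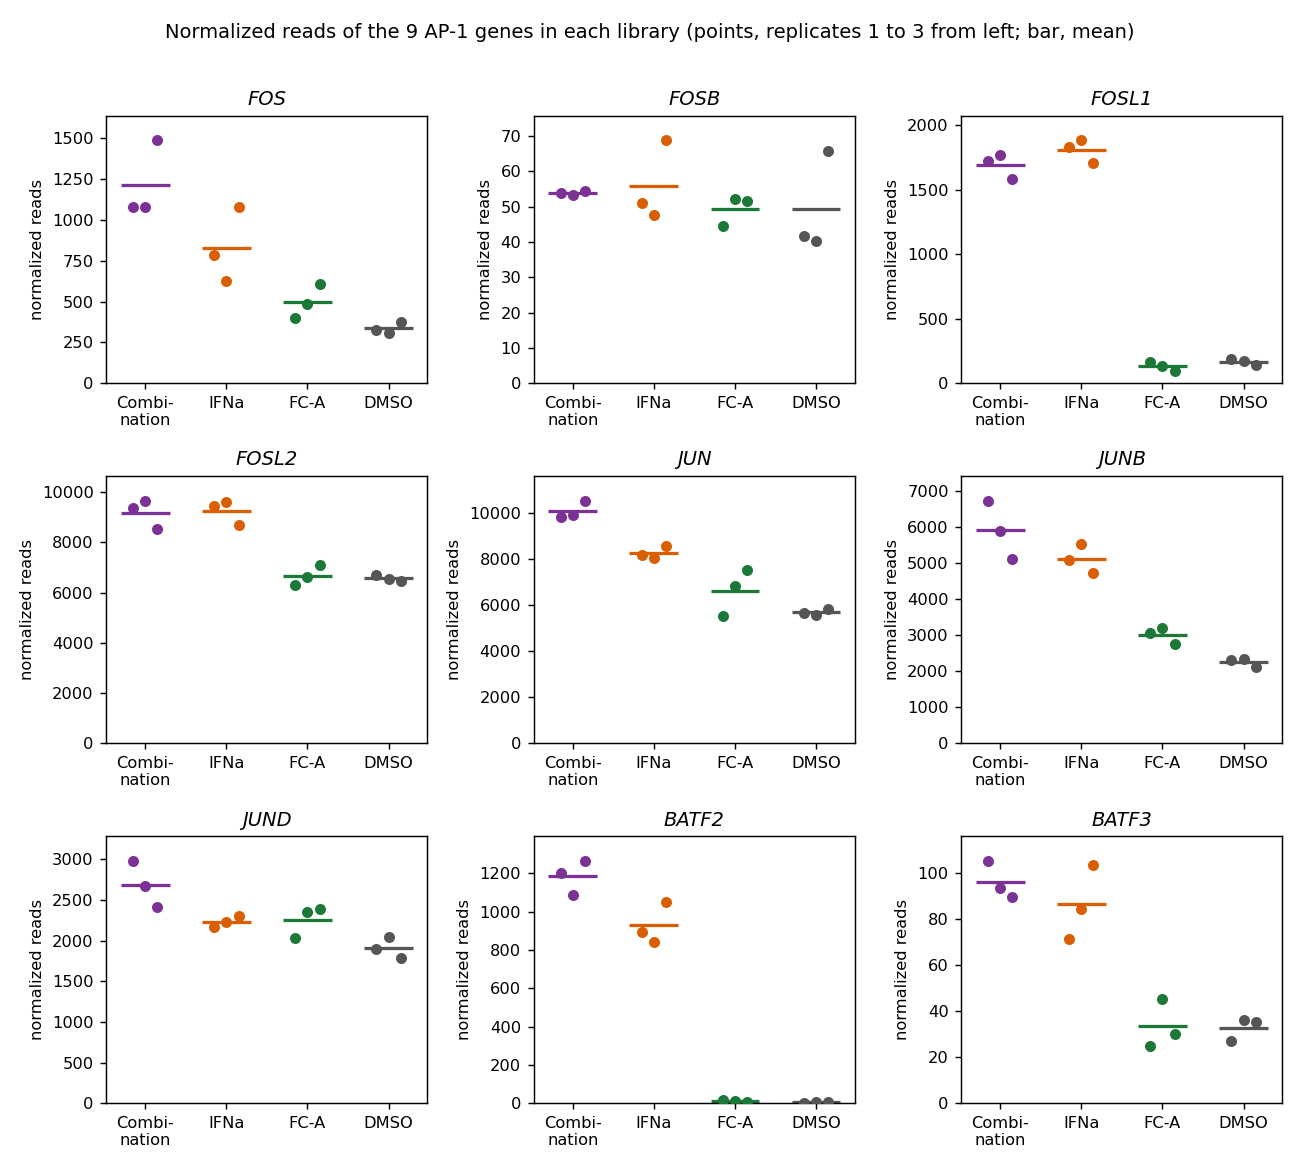
Normalized reads (linear axis from 0, own scale in each panel) of each of the 9 AP-1 genes in the 3 libraries of the Combination, IFNa, FC-A and DMSO groups. Points are libraries and bars are group means. BATF2 lies at 841.41 to 1265.25 in the libraries with interferon and at 1.81 to 16.04 in the others, and FOSB overlaps between IFNa and DMSO.

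RefSeq promoters (GRCh38.p14, 250 bases before to 50 after the transcription start) were read for 7 of the 9 genes: FOS, FOSB, FOSL2, JUN, JUNB, JUND and BATF2. They were searched on both strands for the TRE (TGANTCA), the CRE (TGACGTCA), the GAS (TTCNNNGAA), the core of the interferon-stimulated response element (GAAA, any 2 bases, GAAA), the CArG box and the kappa B motif. These sites bind AP-1, ATF and CREB, STAT, IRF and STAT complexes, SRF and NF-kB proteins. The octamer TGACATCA, a variant of the CRE, was added after the letters had been seen. The 4 promoters with a match are shown because they hold an AP-1 or CRE type site in genes that rose with interferon, and capitals mark the match.
FOSL2: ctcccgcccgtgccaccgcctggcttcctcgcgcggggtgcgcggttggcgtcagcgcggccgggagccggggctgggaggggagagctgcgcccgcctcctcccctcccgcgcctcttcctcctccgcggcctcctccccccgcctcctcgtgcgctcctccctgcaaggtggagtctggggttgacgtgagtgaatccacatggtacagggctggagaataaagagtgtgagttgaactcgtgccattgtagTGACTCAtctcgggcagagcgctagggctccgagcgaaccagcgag
JUN: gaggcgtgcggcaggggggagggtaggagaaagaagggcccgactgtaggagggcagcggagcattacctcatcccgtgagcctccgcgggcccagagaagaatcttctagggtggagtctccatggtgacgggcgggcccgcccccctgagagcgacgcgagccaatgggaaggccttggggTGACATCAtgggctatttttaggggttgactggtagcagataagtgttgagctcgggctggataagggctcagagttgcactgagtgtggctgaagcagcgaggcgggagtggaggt
JUND: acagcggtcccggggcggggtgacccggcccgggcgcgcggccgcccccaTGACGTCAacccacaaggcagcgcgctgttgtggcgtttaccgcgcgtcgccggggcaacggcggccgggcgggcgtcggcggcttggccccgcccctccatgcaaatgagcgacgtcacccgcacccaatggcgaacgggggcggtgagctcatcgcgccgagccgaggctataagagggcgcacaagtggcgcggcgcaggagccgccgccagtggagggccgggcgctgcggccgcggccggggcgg
BATF2: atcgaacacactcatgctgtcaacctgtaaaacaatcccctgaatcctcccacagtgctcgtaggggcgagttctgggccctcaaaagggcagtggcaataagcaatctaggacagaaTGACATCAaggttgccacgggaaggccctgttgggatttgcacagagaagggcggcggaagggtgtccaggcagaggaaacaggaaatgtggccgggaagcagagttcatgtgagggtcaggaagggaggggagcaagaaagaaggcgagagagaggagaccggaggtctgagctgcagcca
FOSL2 (chr2:28392608-28392907, plus strand) held a TRE just after the start, a motif found in 7.71% of 35116 promoters of the same length. JUND (chr19:18281573-18281872, minus strand) held a CRE, found in 1.85%. JUN (chr1:58783998-58784297, minus strand) and BATF2 (chr11:64990228-64990527, minus strand) both held the octamer, found in 2.61%. None of the 7 windows held the response element core (3.57% of promoters), the GAS (7.66%), the CArG box (1.29%) or the kappa B motif (11.3%), which says only that these letters are not in these windows.

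The next comparison asked what FC-A did to the AP-1 genes in cells without interferon. None of the 9 was called in limma, where 0.3% of all genes were. The model held no term for the replicate number, and with such a term JUNB and FOS were called. An unadjusted p below 0.05 was found in 6 of the 9 and in 1376 of all 15990 genes tested. edgeR also called 0 and DESeq2 called 1, which was JUNB, where DESeq2 called 171 of all genes. The libraries of FOS and JUNB did not overlap between FC-A and DMSO, with FC-A higher in both, and 7.81% of all genes had FC-A libraries above every DMSO library. The median log2 fold change was 0.21 over the 9 genes and close to 0 over all genes.

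JUNB had 3060.53, 3191.61 and 2754.57 normalized reads in the FC-A libraries, against 2319.17, 2345.90 and 2114.81 in the DMSO libraries. All 3 FC-A libraries were higher. The log2 fold change of JUNB was 0.41 with a 95% interval of 0.21 to 0.60 (SE 0.0908, limma adjusted p = 0.0833), the smallest p of the 9 genes. The adjusted p was 0.00408 in DESeq2 and 0.00543 in the authors' deposited table, which gives the same log2 value of 0.41. It was 0.0357 in limma without Combination replicate 3 and 0.00302 without replicate 3 of every group. FOS had 399.16, 485.89 and 604.26 normalized reads with FC-A against 327.42, 306.15 and 374.72 in DMSO. The lowest FC-A library was only just above the highest DMSO library, and the log2 fold change was 0.55 with a 95% interval of 0.14 to 0.95 (limma adjusted p = 0.378). Replicate 3 was the highest FOS library in every group, and without it the log2 fold change was 0.47 (limma adjusted p = 0.0577).

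JUN had 5524.99, 6795.69 and 7521.49 normalized reads with FC-A, a wide spread in which replicate 1 lay below every DMSO library. Its log2 fold change was 0.21 (95% interval 0.03 to 0.39, limma adjusted p = 0.487), and 0.33 without FC-A replicate 1 (limma adjusted p = 0.0175). It was 0.11 without FC-A replicate 3 (limma adjusted p = 0.843) and 0.13 without replicate 3 of every group (0.632). JUND stood at 0.24 on the log2 scale (0.07 to 0.41, limma adjusted p = 0.366), with 2035.01, 2354.10 and 2392.20 normalized reads. BATF2 had 16.04, 12.56 and 5.52 normalized reads with FC-A, which rest on 18, 13 and 6 reads. They overlapped the DMSO values, and the log2 fold change of BATF2 was 1.06 with a 95% interval of 0.28 to 1.84 (limma adjusted p = 0.381). It was 1.71 without replicate 3 of every group (limma adjusted p = 0.016), 0.58 without DMSO replicate 1 (0.818) and 0.55 with a pseudocount of 8 (0.422). FOSL1 had an estimate of -0.35 on the log2 scale (-0.69 to -0.02, limma adjusted p = 0.558), at 163.05, 135.24 and 92.89 normalized reads with FC-A, which overlapped the DMSO values. That estimate was -0.13 without FC-A replicate 3 (limma adjusted p = 0.916) and -0.53 without FC-A replicate 1 (0.112). FOSL2, FOSB and BATF3 lay between -0.01 and 0.04 on the log2 scale, with adjusted p of at least 0.958 in limma.

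The third comparison set FC-A added to interferon against interferon alone. In limma 0 of the 9 genes were called between the Combination and IFNa, where 0.331% of all genes were. With a term for the replicate number FOS, JUN, JUNB and JUND were called. An unadjusted p below 0.05 was found in 4 of the 9 and in 2118 of all 15990 genes tested. edgeR, DESeq2 and the authors' deposited table also called 0. In FOS, JUN, JUND and BATF2 every Combination library was higher than every IFNa library, against 9.64% of all genes with the same order. The median log2 fold change was 0.20 over the 9 genes and below 0.01 over all genes. Of the genes called among all, 41.5% were higher, or 27.9% after quantile normalization.

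FOS had 1080.75, 1080.03 and 1486.27 normalized reads in the Combination libraries against 786.34, 627.25 and 1078.03 in the IFNa libraries. The groups were separated by 2 normalized reads, between Combination replicate 2 and IFNa replicate 3. The log2 fold change of FOS was 0.57 (95% interval 0.17 to 0.97, limma adjusted p = 0.235), and it was 0.77 without IFNa replicate 3 (limma adjusted p = 0.035). JUN had 9800.63, 9887.21 and 10521.35 normalized reads in the Combination against 8145.88, 8032.40 and 8543.49 with IFNa. The gap exceeded the spread within either group. The log2 fold change of JUN was 0.29 (0.11 to 0.47, limma adjusted p = 0.181), and the adjusted p was 0.0234 without FC-A replicate 1 and 0.0595 in the authors' deposited table. JUND had 2984.73, 2669.27 and 2416.26 normalized reads in the Combination against 2167.27, 2227.26 and 2303.36 with IFNa. Combination replicate 1 stood highest. Its log2 fold change was 0.26 (0.09 to 0.44, limma adjusted p = 0.206).

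BATF2 had 1202.12, 1085.95 and 1265.25 normalized reads in the Combination against 893.43, 841.41 and 1047.48 with IFNa. The groups came close but did not overlap, and the log2 fold change of BATF2 was 0.36 (95% interval -0.43 to 1.14, limma adjusted p = 0.684). JUNB had 6743.08, 5896.32 and 5112.26 normalized reads in the Combination against 5079.06, 5539.58 and 4728.93 with IFNa, and those overlapped (log2 fold change 0.20, 0.01 to 0.40, limma adjusted p = 0.361). Without Combination replicate 1 it was 0.10 (limma adjusted p = 0.592). BATF3 (log2 fold change 0.16), FOSL2 (-0.01), FOSB (-0.03) and FOSL1 (-0.10) also overlapped, with limma adjusted p from 0.767 up. Without replicate 3 of every group limma called 4 of the AP-1 genes higher in the Combination: FOS (adjusted p = 0.0047), JUND (0.00865), JUN (0.0234) and JUNB (0.0253). That setting called 1187 of all genes in either direction.

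Against DMSO the Combination raised the same 8 genes that IFNa raised, where 26.1% of all genes were called higher and 48.3% in either direction. BATF2 rose 215.2-fold, FOSL1 10.32-fold, FOS 3.58-fold (limma adjusted p = 1.72e-06), BATF3 2.88-fold, JUNB 2.60-fold (1.57e-08), JUN 1.77-fold (1.54e-06), JUND 1.404-fold (0.000174) and FOSL2 1.395-fold. FOSB had 53.83, 53.29 and 54.45 normalized reads in the Combination, within the DMSO range of 40.18 to 65.79 (log2 fold change 0.16, limma adjusted p = 0.529). Against FC-A the Combination also raised 8, where 26.6% of all genes were called higher and 48.9% in either direction. The log2 fold changes there were 6.69 for BATF2, 3.72 for FOSL1, 1.53 for BATF3, 1.29 for FOS, 0.97 for JUNB, 0.62 for JUN, 0.46 for FOSL2 and 0.25 for JUND. JUND was the weakest call (limma adjusted p = 0.0196), and it was lost without Combination replicate 1 (0.102), without FC-A replicate 1 (0.0841) and under quantile normalization (0.347). Of all genes called, 53.9% were higher against DMSO and 54.4% against FC-A, or 35.9% and 36.5% after quantile normalization. The Combination libraries were all above the DMSO libraries in 8 of the 9 genes (31.4% of all genes) and above the FC-A libraries in 9 of 9 (28.4%). BATF2, tested only because of its mean in the libraries with interferon, is in each count of AP-1 genes here. These comparisons share libraries with those above.

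**Figure D2:**
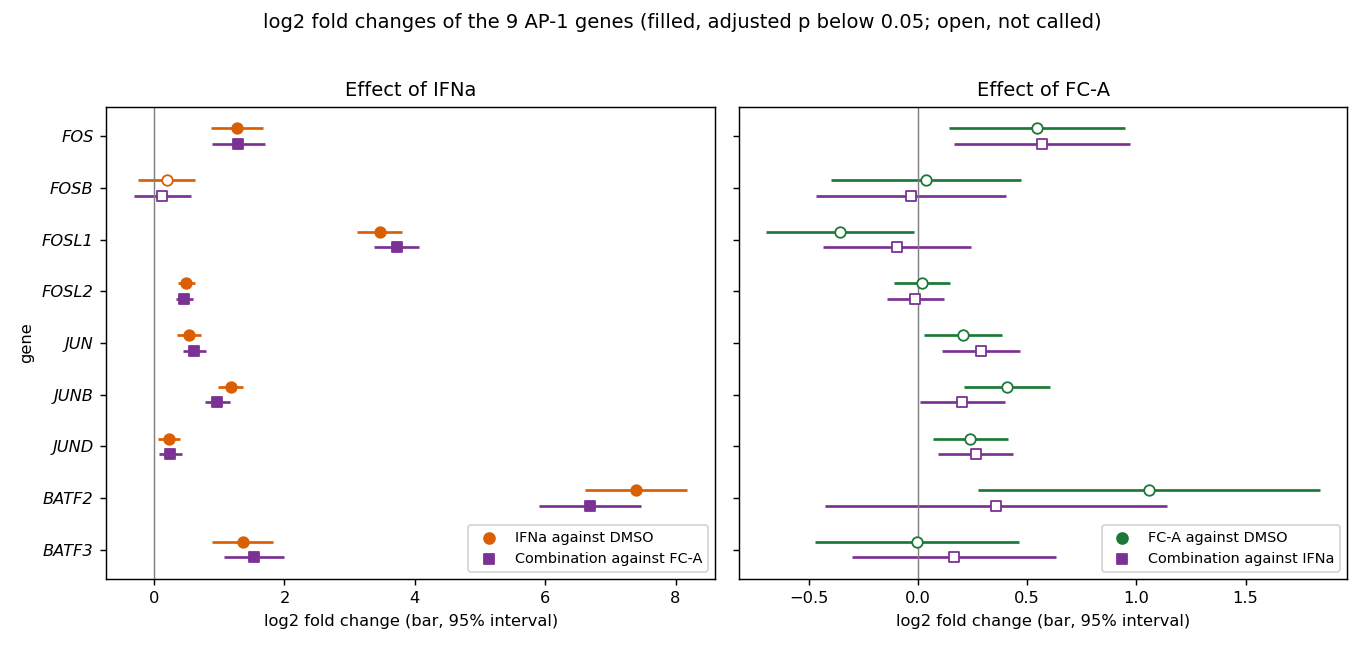
Log2 fold change of each AP-1 gene for IFNa with and without FC-A (left) and for FC-A with and without IFNa (right), with 95% intervals from limma and filled points where the adjusted p was below 0.05. IFNa against DMSO and Combination against FC-A have 8 filled points each, and FC-A against DMSO and Combination against IFNa have none.

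Whether the effect of FC-A differed with and without interferon was tested as an interaction. limma called 0 of the 9 genes and 0 of all 15990 (0%), with 0 of the 9 and 627 of all genes at an unadjusted p below 0.05. edgeR called 0 genes and DESeq2 called 3, none of them an AP-1 gene. The estimate for FOS was 0.02 on the log2 scale with a 95% interval of -0.55 to 0.59. For JUN it was 0.08 (-0.17 to 0.33), for JUNB -0.20 (-0.48 to 0.07), for FOSL1 0.26 (-0.22 to 0.74) and for BATF2 -0.70 (-1.81 to 0.40). Leaving out 1 library moved the estimate over -0.16 (without IFNa replicate 2) to 0.23 (IFNa replicate 3) for FOS, -0.04 (FC-A replicate 1) to 0.18 (FC-A replicate 3) for JUN, and -0.30 (Combination replicate 1) to -0.10 (Combination replicate 3) for JUNB. It ranged over 0.04 (without FC-A replicate 3) to 0.44 (FC-A replicate 1) for FOSL1, and -1.11 (FC-A replicate 3) to -0.22 (DMSO replicate 1) for BATF2.

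Levels per kilobase allow the 9 transcripts to be compared with each other. Normalized reads were divided by the length of the longest protein-coding transcript of each gene. The 9 genes together came to 11150.0 ± 506.0 normalized reads per kb in the Combination, 9718.5 ± 118.2 with IFNa and 6085.8 ± 423.1 with FC-A, against 5155.9 ± 101.2 in DMSO (mean ± SD, n = 3 each). The JUN genes made up most of that pool in every group, at 67.6 ± 1.4% in the Combination, 65.2 ± 0.77% with IFNa and 77.7 ± 0.58% with FC-A, against 75.1 ± 0.52% in DMSO. The FOS genes held 26.6 ± 1.2%, 29.4 ± 0.46% and 21.6 ± 0.74% in the Combination, IFNa and FC-A groups, against 24.2 ± 0.57% in DMSO. The BATF genes held 5.85 ± 0.49% in the Combination and 5.37 ± 0.69% with IFNa, against 0.648 ± 0.16% with FC-A and 0.699 ± 0.13% in DMSO. The mean pool was larger in both groups with interferon than in those without. Summed over all genes, normalized reads were also higher with interferon, at 36.27 to 37.62 M per library against 31.69 to 32.73 M without. The part of that difference in the pool was not tested.

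Within the FOS genes, FOSL1 held 9.09 ± 0.40% of the pool in the Combination and 11.1 ± 0.51% with IFNa, against 1.3 ± 0.44% with FC-A and 1.90 ± 0.25% in DMSO. FOSL2 held 12.3 ± 0.63% in the Combination and 14.2 ± 0.70% with IFNa, against 16.3 ± 0.57% with FC-A and 19 ± 0.30% in DMSO, so its share was smaller with interferon while its level was higher. Among the JUN genes, JUNB held 29.1 ± 2.7% in the Combination, 28.9 ± 2.0% with IFNa and 27.2 ± 3.2% with FC-A, against 24.1 ± 0.88% in DMSO. JUN held 25.6 ± 2.1% in the Combination, 24 ± 0.96% with IFNa and 30.6 ± 2.8% with FC-A, against 31.2 ± 1.4% in DMSO. JUNB was thus ahead of JUN in the means of both groups with interferon and behind it in the means of both groups without. Single libraries did not all keep that order, since per kb JUN was ahead in Combination replicate 3 and JUNB in FC-A replicate 1. JUND held 12.9 ± 0.78% in the Combination, 12.3 ± 0.39% with IFNa and 19.9 ± 0.36% with FC-A, against 19.9 ± 1.0% in DMSO. FOSB stayed at or below 0.254% in every group. These shares are a description and were not tested, and they move together because they add to the same whole.

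**Figure D3:**
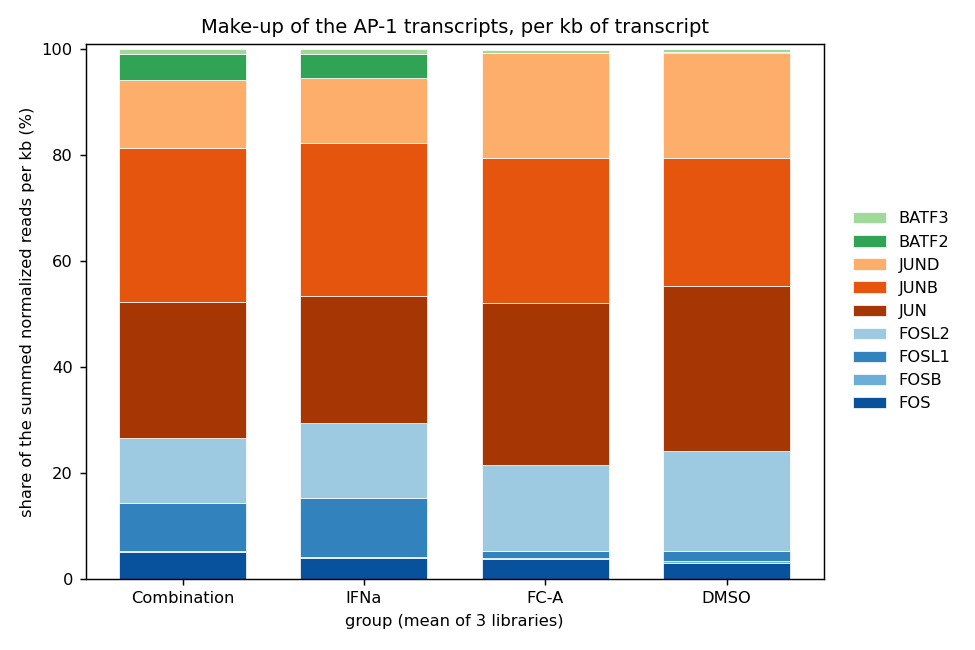
Share of the summed normalized reads per kb of the 9 AP-1 genes (percent) held by each gene in the Combination, IFNa, FC-A and DMSO groups, as means of 3 libraries. FOSL1 and BATF2 take up 9.09% and 4.97% in the Combination, against 1.90% and 0.0460% in DMSO.

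Ordered by their means, FOS, JUN, JUNB, BATF2 and BATF3 ran from the Combination through IFNa and FC-A to DMSO at the low end. Only in FOS were all 3 pairs of neighbours free of overlap. In JUN and BATF2 the FC-A and DMSO libraries overlapped, in JUNB the Combination and IFNa libraries did, and in BATF3 both of these pairs did. FOSL2 and FOSB were highest with IFNa, ahead of the Combination, FC-A and DMSO, and FOSL1 had the same top but stood lower in FC-A than in DMSO. In these 3 the IFNa and Combination libraries overlapped, as did FC-A and DMSO. JUND ran Combination, FC-A, IFNa, DMSO, and its FC-A and IFNa libraries overlapped. Replicate 3 was the highest library of its group in 4 of 4 groups for FOS and JUN, and the lowest in 4 of 4 for FOSL1 and JUNB.

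For each gene the transcript with the most similar profile was sought, as the smallest root mean square difference in centred log2 values over the 12 libraries. For FOS it was THEMIS2 (difference 0.15, Pearson r 0.982) and for JUNB it was KLF10, an early transcription factor gene (0.0798, r 0.99). FOSL2 was closest to ARHGEF2 (0.0436, r 0.985), JUN to the unnamed transcript CTD-2369P2.2 (0.0624, r 0.982) and JUND to IER5L (0.0649, r 0.954). FOSL1 was closest to HLA-B (0.217, r 0.993), whose reads may be shared with other HLA genes, and then to IFIT5 and PIK3AP1. BATF2 was closest to RASGRP3 (0.495, r 0.993), BATF3 to NTN4 (0.173, r 0.974) and FOSB to ZFP28 (0.13, r 0.815). The libraries share their groups and depth.

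Proteins that pair with AP-1 factors or bind beside them were followed in a list of 20 genes, of which 18 were tested. IFNa raised 14, lowered none and left 4 uncalled (median log2 fold change 0.75), where 25.4% of all genes were called higher and 46.9% in either direction. IRF1, an interferon regulatory factor, rose by 2.86 on the log2 scale (limma adjusted p = 4.01e-15), with 9185.15, 9359.23 and 9478.59 normalized reads in IFNa libraries against 1285.20, 1281.06 and 1297.68 in DMSO. MAFF, a small MAF protein without an activation domain, rose 6.96-fold (limma adjusted p = 1.64e-12). ATF3, a stress-induced factor that pairs with JUN, rose by 1.41 (6.07e-07) and CEBPD, a C/EBP factor of the acute phase, by 1.23 on the log2 scale (limma adjusted p = 4.35e-07). BATF, the third BATF gene, had at most 26.05 normalized reads in any library, and its log2 fold change with IFNa was 1.06 (limma adjusted p = 0.0665). The Combination raised 17 of the 18 against DMSO, where 26.1% of all genes were called higher and 48.3% in either direction. Against FC-A it raised 14, beside 26.6% and 48.9% of all genes.

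For FC-A against DMSO limma called 0 of the 18 partners. In that comparison 5 had an unadjusted p below 0.05, as did 1376 of all 15990 genes tested. Of the partners edgeR called 0 and DESeq2 3, where DESeq2 called 171 of all genes. ATF3 came closest, and is named because of its values. It had 667.35, 548.68 and 523.32 normalized reads with FC-A against 374.59, 394.17 and 345.16 in DMSO, all 3 FC-A libraries higher. Its log2 fold change was 0.64 (limma adjusted p = 0.0565), and the adjusted p was 0.000648 in DESeq2. The adjusted p in limma was 0.0313 without Combination replicate 3, 0.0257 without IFNa replicate 3 and 0.0487 under quantile normalization. Between the Combination and IFNa limma called 0 of the 18, with 10 at an unadjusted p below 0.05, as were 2118 of all 15990 genes. Of the partners 0 were called there by edgeR and 4 by DESeq2, where DESeq2 called 240 of all genes.

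Genes of the signals that feed AP-1, the MAPK cascades, the SRF and ELK factors and the ubiquitin ligase subunit FBXW7 that targets JUN, formed a list of 34 that were all tested. IFNa raised 13, lowered 6 and left 15 uncalled, with a median log2 fold change of 0.06. The 19 called of 34 stand near the 46.9% of all genes called in either direction. The ETS factors ELK3 and ELK4, which bind with SRF, rose by 0.97 (limma adjusted p = 2.87e-08) and 0.70 (6.93e-08) on the log2 scale. The kinases MAP3K8 and MAP3K5 rose by 0.82 (limma adjusted p = 1.97e-05) and 0.62 (1.19e-05). MAPK13, a p38 kinase, fell by 0.50 (limma adjusted p = 0.00012), with 428.35, 465.44 and 479.00 normalized reads with IFNa against 650.31, 662.06 and 627.39 in DMSO. MAP2K5 fell by 0.40 (limma adjusted p = 0.000524) and MKL1, a coactivator of SRF, by 0.24 (0.00128). MAP2K6, a kinase of the p38 branch, fell by 0.37 (limma adjusted p = 0.014), and that call was lost without IFNa replicate 3 (0.0596) or DMSO replicate 3 (0.053). The Combination raised 14 and lowered 6 against DMSO, where 48.3% of all genes were called in either direction. Against FC-A it raised 13 and lowered 8, beside 48.9% of all genes. For FC-A against DMSO limma called 0 of the 34 with 3 at an unadjusted p below 0.05 (1376 of all 15990 genes), and edgeR and DESeq2 called 0. For the Combination against IFNa limma called 0 with 5 at an unadjusted p below 0.05 (2118 of all 15990 genes). There edgeR called 0 and DESeq2 called 2, where DESeq2 called 240 of all genes.

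Known AP-1 targets were followed in a list of 30 genes, of which 26 were tested. IFNa raised 21, lowered none and left 5 uncalled (median log2 fold change 1.3), beside 25.4% of all genes called higher and 46.9% in either direction. MMP13, a collagenase, had 77.51, 76.15 and 52.37 normalized reads with IFNa and 0 in every DMSO library, so it passed the filter only through the libraries with interferon. The neutrophil chemokine IL8 rose by 4.46 on the log2 scale (limma adjusted p = 6.8e-11), with 2362.07, 2354.80 and 2265.17 normalized reads in IFNa libraries against 110.65, 111.94 and 93.44 in DMSO. The cytokine IL6 rose by 3.41 (limma adjusted p = 1.95e-06) and the growth factor gene AREG by 2.79 (limma adjusted p = 0.00129), the last from few reads. Many of these genes also answer other factors, among them NF-kB.

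The matrix proteases MMP1 and MMP10 stood apart from the rest of the target list. MMP10 had 206.86, 178.82 and 222.09 normalized reads in the Combination, 318.21, 263.65 and 293.51 with IFNa and 172.85, 187.40 and 170.15 with FC-A, against 379.12, 345.38 and 298.44 in DMSO. Both groups with FC-A lay below both groups without it. FC-A lowered MMP10 by 1.92-fold (log2 fold change -0.94, SE 0.114, limma adjusted p = 0.00231). It was the 1 target of 26 called in that comparison, where 0.3% of all genes were called. MMP1 had 41.16, 42.63 and 45.91 normalized reads in the Combination, 83.63, 86.62 and 73.11 with IFNa and 58.80, 49.27 and 60.70 with FC-A, against 87.07, 81.32 and 96.30 in DMSO. It was lower in every FC-A library than in any library without FC-A, with or without interferon. MMP1 was the 1 target called between the Combination and IFNa, where 0.331% of all genes were (log2 fold change -0.89, SE 0.144, limma adjusted p = 0.0199). That call was lost without Combination replicate 1, 2 or 3 (limma adjusted p = 0.0836, 0.0736 and 0.0554) and without IFNa replicate 1 or 2 (0.164 and 0.142). For MMP1 under FC-A alone the log2 fold change was -0.64 (limma adjusted p = 0.0838), and for MMP10 between the Combination and IFNa it was -0.53 (limma adjusted p = 0.0747). The adjusted p of MMP10 there was 0.00852 in DESeq2, 0.01 in the authors' deposited table and 0.0483 in limma without IFNa replicate 3. The Combination raised 22 targets against DMSO, where 26.1% of all genes were called higher and 48.3% in either direction. It lowered MMP1 by 2.01-fold (limma adjusted p = 4.74e-05) and MMP10 by 1.68-fold (8.57e-05). Neither passed the test with IFNa alone, where MMP1 stood at -0.12 (limma adjusted p = 0.52) and MMP10 at -0.22 (limma adjusted p = 0.125). Against FC-A the Combination raised 21 targets, where 26.6% of all genes were called higher and 48.9% in either direction. There it lowered MMP1 (log2 fold change -0.37, limma adjusted p = 0.0475), a call lost without any 1 of 10 of the 12 libraries.

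**Figure D4:**
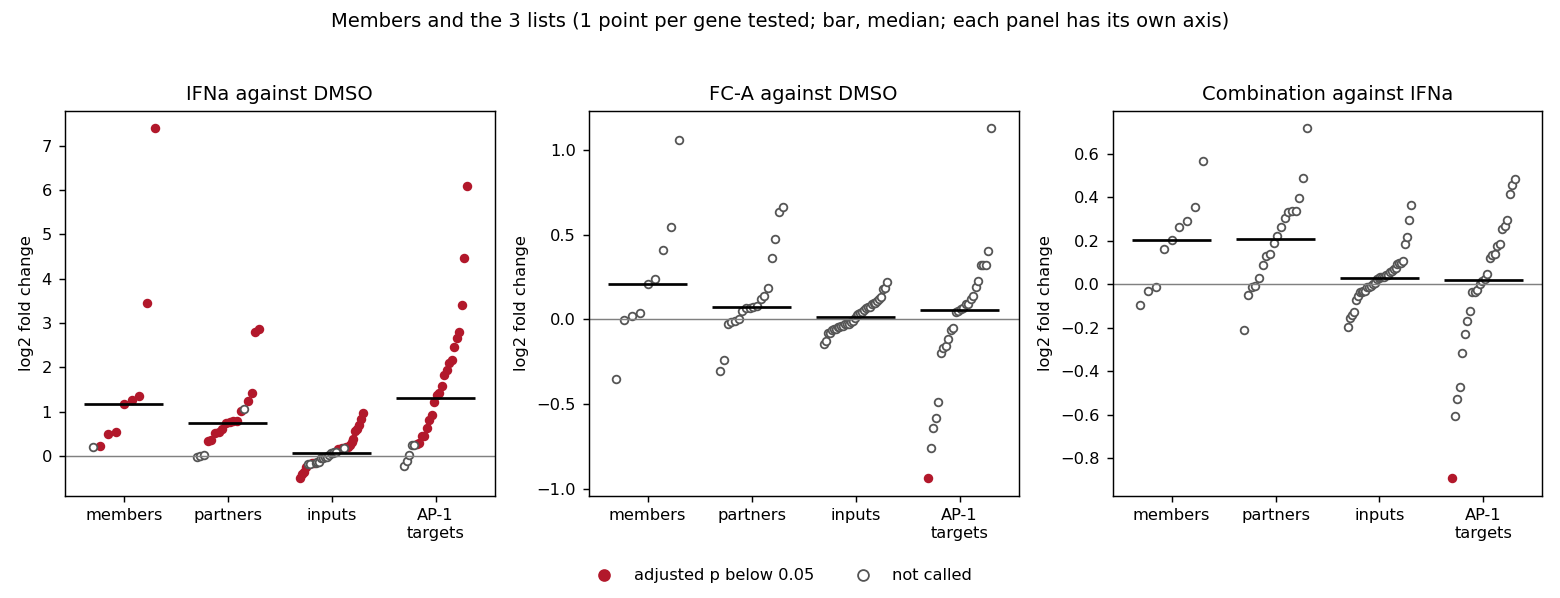
Log2 fold change of every tested gene among the 9 AP-1 genes, the 18 partners, the 34 input genes and the 26 AP-1 targets in 3 comparisons, with red points at an adjusted p below 0.05 and a bar at each median. MMP10 is the red point with FC-A and MMP1 the red point between the Combination and IFNa, and the highest target under FC-A is MMP13, which was at 0 in every DMSO library.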

How the data were processed

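The authors deposited 1 table of signal values, normalized reads per gene and library, which became whole reads (100% of values within 0.01 of a whole number) with 1 factor per library. The log2 values, p-values and adjusted p-values of the authors' deposited comparison tables are in the DESeq2 column layout, per the file headers, and the signs of those given against the Combination were turned here. Score columns of those deposited tables hold standard errors and Wald statistics, per the file headers. Per the submitters' processing notes the build was hg19 and the tools were STAR 2.7.3, DESeq2 1.24.0, bcl2fastq 2.20 and FastQC. The counting program, the annotation and the use of strand are not given there. Libraries came from a stranded mRNA kit, per the labels.

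Labels gave the groups and replicate numbers. limma 3.58.1 in R 4.3.3 fitted 1 model with 4 group means and a variance trend to log2 of the normalized value plus 1 over 12 libraries. It covered the 15990 genes that averaged 10 or more normalized reads, and left out 12045. The log2 scale with that pseudocount understates changes of genes with few reads. Two-sided p-values were adjusted over all genes tested by the Benjamini-Hochberg method, with a threshold of 0.05. SE is limma's moderated standard error on the log2 scale, and intervals are at 95%. edgeR 4.0.16 and DESeq2 1.42.0 were run on the recovered whole reads. The code was tested on simulated data. Lengths come from GENCODE v29 and promoters from RefSeq (GRCh38.p14). The files give no coordinates.

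The text names all 9 AP-1 genes, the closest of the 3 most similar genes to each, and from each list up to 4 called genes per direction, largest changes first. Members, lists and rules were chosen with earlier results of these data known. The replicate number was not a term of the model.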

Additional observations from a re-analysis of the deposited data

How the results depend on the processing

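Of 1383 alternative values for single AP-1 genes and comparisons, 1308 kept their direction and side of the threshold, 18 passed the threshold under an alternative alone, 21 lost it and 36 changed sign. No sign change touched a called value (limma adjusted p of at least 0.951 as reported, and at least 0.736 under any alternative). The fit was repeated with TMM or quantile scaling, with pseudocounts of 0.5 or 8, with a minimum mean of 50 or no minimum, without the trend, on the compared groups only, with a replicate block, without each library or replicate 3, with edgeR or DESeq2, with a fold change of at least 2, and against the authors' deposited tables. Some of these settings could not change a sign. The minimum mean, the trend, the block, the compared groups, the fold rule and leaving out a library outside the comparison all keep the log2 fold change. The fold rule can only remove calls. The count of values that kept their direction is therefore partly fixed in advance. JUND with IFNa was also lost without the variance trend (limma adjusted p = 0.0673). The cause of these changes was not tested. Quantile scaling moved the median of all genes to a log2 fold change of -0.10 with IFNa, -0.11 for the Combination against DMSO and -0.11 against FC-A, and the 8 called AP-1 genes stayed positive there. With IFNa the small rises shrank under that scaling. FOSL2 went from 0.49 to 0.27 on the log2 scale (limma adjusted p = 0.00109) and JUN from 0.54 to 0.31 (0.0136). With lengths from the union of exons the JUN genes held 69.5% of the pool in the Combination, 67.0% with IFNa, 78.8% with FC-A and 76.1% in DMSO. DMSO values of BATF2, at 2 to 7 reads, limit the precision of its fold changes.

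Sign changes for FC-A against DMSO were of FOSB, over -0.0872 to 0.262 without 1 library, FOSL2, over -0.0263 to 0.0609 and at -0.0403 without replicate 3 of every group, and BATF3, over -0.24 to 0.179, at 0.0961 without replicate 3, 0.00055 with TMM scaling, 0.0287 in edgeR and 0.0228 in the authors' deposited table. For the Combination against IFNa they were of FOSB, over -0.135 to 0.126 and at 0.118 without replicate 3, and FOSL2, over -0.0559 to 0.0424. For the interaction FOS ran over -0.162 to 0.228, with -0.00695 under quantile scaling, -0.0178 in edgeR and -0.0137 in DESeq2. FOSB ran over -0.293 to 0.0882, FOSL2 over -0.0751 to 0.0233, with 0.0376 without replicate 3, JUN over -0.042 to 0.181, JUND over -0.0544 to 0.098 and BATF3 over -0.015 to 0.404.

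The labels state no batch behind the replicate numbers. Deviations from the group means correlated above 0.1 in 10 of 18 same-numbered pairs (r of 0.018 to 0.395, and 0.188 to 0.395 for replicate 3) and in 4 of 36 other pairs, and 7 of 12 libraries were closest on average to their own number. Every same-numbered pair had a positive r, and the other pairs ran from -0.354 to 0.257. Not every same-numbered pair passed 0.1, so the pairing is a hint from the data. The model left the replicate number out, and the lack of AP-1 calls for FC-A, alone or added to interferon, depended on that. With the replicate number as a block, calls for FC-A against DMSO came to 2 AP-1 genes (JUNB and FOS, adjusted p = 0.000372 and 0.00368), 289 of all genes, 3 partners and 2 targets. For the Combination against IFNa the block gave 4 AP-1 genes (FOS 0.00203, JUN 0.00918, JUNB 0.0325, JUND 0.0374), 1009 of all genes, 8 partners, 3 inputs and 6 targets, and for the interaction 1 gene. Without replicate 3 of every group FC-A against DMSO gave 2 AP-1 genes, 134 of all genes and 2 partners. The Combination against IFNa then gave 4, 1187, 8 partners, 3 inputs and 5 targets, and the interaction 1 gene.

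For FC-A against DMSO, limma called 48 genes. DESeq2 called 171 genes, 1 AP-1 gene and 3 partners, and the authors' deposited table gave 155 genes, 1 and 3. Without the variance trend 20 genes were called, in the compared groups only 26 with 1 partner, and 1 partner under quantile scaling. For the Combination against IFNa limma called 53 genes. DESeq2 called 240 genes, 4 partners, 2 inputs and 3 targets, and the authors' deposited table gave 231 genes, 4, 2 and 3. Without the trend 11 were called, and in the compared groups only 10 with 0 targets. DESeq2 called 3 genes for the interaction.

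At a fold change of at least 2, IFNa against DMSO kept 5 AP-1 genes, 1439 of all genes, 5 partners and 0 inputs. The Combination against DMSO kept 5, 1569, 7 and 2, and against FC-A 4, 1573, 5 and 2. FC-A against DMSO then had 3 genes and 0 targets, and the Combination against IFNa 4 genes and 0 targets.

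Leaving out 1 library gave 0 to 1 AP-1 genes for FC-A against DMSO, 7 to 8 for IFNa, 8 for the Combination against DMSO, 0 to 1 against IFNa, 7 to 8 against FC-A and 0 for the interaction. Over all genes the ranges in that order were 16 to 119, 6183 to 7781, 6584 to 8029, 4 to 510, 6664 to 8122 and 0. Partners ranged over 0 to 3, 14 to 15, 16 to 17, 0 to 4 and 14 to 15, inputs over 0, 16 to 20, 17 to 20, 0 to 1 and 19 to 23, and targets over 1, 20 to 21, 23 to 24, 0 to 4 and 19 to 22.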
